A study of Mus musculus with 4 samples.

Results

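The catalytic core of Polycomb repressive complex 1 (PRC1) was examined in sorted tongue epithelium of mouse embryos. The core comprises 8 genes, taken by name: the 2 RING1 genes, Ring1 (also called Ring1a) and Rnf2 (Ring1b), and the 6 Pcgf genes, Pcgf1, Pcgf2 (Mel18), Pcgf3, Bmi1 (Pcgf4), Pcgf5 and Pcgf6. All 8 had a row among the 24453 genes of the files, and all 8 passed the filter on low counts and were tested. RNA sequencing covered 4 libraries of embryonic day 16, 2 labelled as control and 2 labelled as a Ring1a/b double knockout (2KO). Tongues had been trimmed to leave out the posterior part with the circumvallate papillae; cells carrying EpCAM were then isolated by flow sorting, and their RNA was amplified and read as single reads of 100 nucleotides. The 2KO genotype was Ring1a-/- Ring1b fl/fl K14-Cre+. Ring1 was thus constitutively mutated, while the floxed Rnf2 allele depended on a Cre recombinase driven by the promoter of keratin 14 (Krt14), so cells that never expressed it would keep Rnf2. The labels call the other group only control, and whether those embryos carried the Ring1 mutation, the floxed allele or Cre is not given in the sources used here. The labels do not say that the libraries of a group came from separate embryos, so every p-value below measures the spread between libraries, which may be technical.

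PRC1 is a chromatin complex that attaches a single ubiquitin to histone H2A and helps to keep developmental genes silent. Its enzymatic centre is a pair of RING-finger proteins: RING1 or RNF2, which carries the ubiquitin ligase activity, and 1 of the PCGF proteins, which stabilises and directs it. The choice of PCGF partner defines the type of complex. PCGF2 and BMI1 assemble with CBX and PHC proteins into canonical PRC1, which reads the methyl mark placed by PRC2. PCGF1, PCGF3, PCGF5 and PCGF6 assemble with RYBP or YAF2 into variant complexes. In surface epithelia such as skin, PRC1 is known for restraining genes of other lineages in the basal layer.

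The start regions are shown for 4 genes that had more reads in both libraries labelled 2KO than in either control. PRC1 is known to occupy CpG-rich gene starts, but these RNA libraries do not measure binding. A link between the start regions and the reads was not tested. The windows are RefSeq starts on GRCm38.p6 (250 bases before to 50 after the start); 7 of the 8 members matched, and Pcgf1 was not among them. Capitals mark 3 motifs searched on both strands: CACGTG (an E-box), TGACGT (one part of a cyclic AMP response element) and GGGCGG (a GC box), which touch or overlap in places. Each stretch is 60 bases long, is written 5′ to 3′ on the gene's strand and overlaps no annotated exon.
Ring1, chr17:34024681-34024740, minus strand: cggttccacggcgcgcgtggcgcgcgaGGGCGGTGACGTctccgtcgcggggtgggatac
Rnf2, chr1:151501022-151501081, minus strand: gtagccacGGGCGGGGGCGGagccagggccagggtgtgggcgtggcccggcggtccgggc
Bmi1, chr2:18676788-18676847, plus strand: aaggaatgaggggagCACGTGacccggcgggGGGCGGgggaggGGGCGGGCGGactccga
Pcgf2, chr11:97699739-97699798, minus strand: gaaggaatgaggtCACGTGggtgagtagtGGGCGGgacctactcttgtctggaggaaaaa

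Both RING1-type genes and Pcgf5 had CpG-dense windows. Ring1 held 37 CpG dinucleotides, more than 94.4% of the 32851 windows in the table, and Rnf2 held 30, more than 88.3%. The 3 Pcgf5 starts held 34, 5 and 35, so this did not set the targeted pair apart from its partners. Bmi1 and Pcgf3 each held 23, Pcgf6 held 22 and Pcgf2 held 10, against a median of 7 over all windows. The Pcgf2 window (97699599 to 97699898) lies inside the annotated gene, whose first base on the minus strand is 97700497. Its count and the printed stretch therefore belong to an internal start. The canonical partners Bmi1 and Pcgf2 were the 2 members with CACGTG, which 7.15% of all windows contain. Ring1 was the 1 member with TGACGT, present in 7.51% of windows, and 6 of the 7 matched members held GGGCGG, present in 35.7%. These matches describe the letters of the windows and nothing about binding.

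The question put to the targeted genes was whether their counts followed the labels. They did not fall: both Ring1 and Rnf2 had more reads in each library labelled 2KO than in either control library. Ring1 lies on chromosome 17 (34020792 to 34024680, minus strand, mm10). Its level in CPM (reads scaled to library size by the TMM method) was 9.02 and 8.57 in the controls and 16.8 and 15.0 in the libraries labelled 2KO, from 184, 146, 296 and 304 reads. The 2KO values lay above both controls, and the gap between groups exceeded the gap within either. The log2 fold change was 0.85 ± 0.312 (SE), with a 95% interval of 0.17 to 1.54. This did not pass the test over all genes (edgeR adjusted p = 0.101, unadjusted p = 0.0193, n = 2 libraries per group). Such an unadjusted p was common, since 4241 of the 15336 genes tested had one under 0.05.

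Rnf2 lies on chromosome 1 (151458004 to 151500955, minus strand). Its level was 34.0 and 51.3 CPM in the controls and 62.9 and 62.4 CPM in the libraries labelled 2KO. The 2KO libraries were nearly equal, whereas the controls differed 1.51-fold from each other. The log2 fold change was 0.56 ± 0.221 (SE), with a 95% interval of 0.07 to 1.04, and did not pass (edgeR adjusted p = 0.126). Without the second control library it was 0.89 and passed (edgeR adjusted p = 0.00853), and without the first it was 0.31 (adjusted p = 0.378). An offset for GC content and transcript length gave 0.84 (edgeR adjusted p = 0.0274).

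A count per gene sums reads over all exons. The sources used here do not say which exons the Ring1a and Ring1b alleles lack, so reads from the deleted part cannot be separated from reads of the remaining transcript. The counts therefore do not test the deletion, and the group is called by its label throughout. In these bulk samples, fewer cells of a type and less RNA per cell cannot be told apart. Of the exonic bases of Rnf2, 158 (3.83%) are shared with Trmt1l on the opposite strand, which had 23.3, 25.5, 19.6 and 18.3 CPM in control 1, control 2, 2KO 1 and 2KO 2. By CPM, Trmt1l was lower in both libraries labelled 2KO than in either control, without passing the test (log2 fold change -0.37, edgeR adjusted p = 0.367). By FPKM its groups overlapped, at 7.31 and 7.97 in the controls and 7.56 and 6.55 in the libraries labelled 2KO. The part of shared reads in the Rnf2 counts was not tested.

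**Figure D1:**
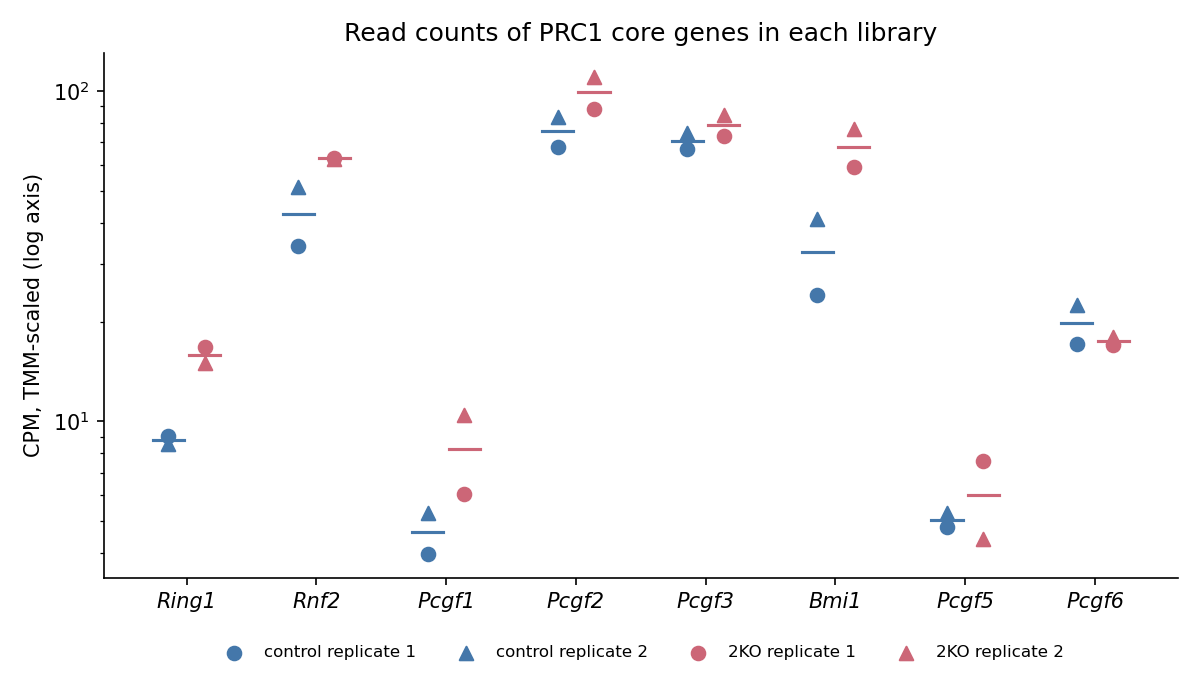
CPM (log axis) of the 8 core genes in each of the 4 libraries, with circles for replicate 1, triangles for replicate 2 and horizontal bars for group means. The groups do not overlap for Ring1, Rnf2, Pcgf1, Pcgf2 and Bmi1, with the libraries labelled 2KO higher, from 15.0 to 16.8 against 8.57 to 9.02 CPM for Ring1.

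Among the 6 Pcgf partners, Bmi1 rose and none of the other 5 passed the test in either direction. Bmi1, a partner of canonical PRC1 and a textbook repressor of the Cdkn2a locus, lies on chromosome 2 (18677018 to 18686629, plus strand). It had 24.2 and 41.0 CPM in the controls and 58.9 and 77.0 CPM in the libraries labelled 2KO, from 494, 699, 1039 and 1556 reads. Every 2KO value lay above both controls, although the controls differed 1.69-fold from each other. The fitted level was 2.09-fold higher (95% interval 1.40 to 3.10), a log2 fold change of 1.06 ± 0.260 (SE), with an edgeR adjusted p of 0.0243. Without the second 2KO library the log2 fold change was 0.85 and did not pass (edgeR adjusted p = 0.0573). Over all 16 alternative settings the difference was positive in 16 and passed in 13.

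The share of called members was close to the background. Of the 15336 genes tested, 11.9% were called (1827 genes), 7.00% as higher and 4.92% as lower in the libraries labelled 2KO. The 1 of 8 members called is a share near this background and is no result about the set. The absence of overlap was more frequent: both 2KO libraries exceeded both controls in CPM for 5 of the 8 members, against 29.0% of all genes tested. The log2 fold change was positive for 7 of 8 members, with a median of 0.48, and the median over all genes tested was 0.01. An unadjusted p under 0.05 was found for 3 of 8 members, beside 4241 of the 15336 genes tested.

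Pcgf2, the other canonical partner (chromosome 11, 97688823 to 97700497, minus strand), was the most abundant member by length-adjusted level. It had 67.7 and 83.7 CPM in the controls and 88.5 and 110.6 CPM in the libraries labelled 2KO. The groups did not overlap, but their nearest values were close. The log2 fold change was 0.40 ± 0.188 (SE), with an interval of -0.02 to 0.81, and did not pass (edgeR adjusted p = 0.201).

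Pcgf1, the partner of the BCOR-containing variant complex (chromosome 6, 83077869 to 83080855, plus strand), had few reads, from 81 to 212 per library. It had 3.97 and 5.28 CPM in the controls and 6.01 and 10.5 CPM in the libraries labelled 2KO. The groups did not overlap, and the second 2KO library stood 1.74-fold above the first. The log2 fold change of 0.84 had a wide interval of -0.22 to 1.89 (edgeR adjusted p = 0.291) and was 0.37 without that library.

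Pcgf3 and Pcgf5 form closely related variant complexes. Pcgf3 (chromosome 5, 108461232 to 108506976, plus strand) had 67.1 and 74.7 CPM in the controls and 73.2 and 84.5 CPM in the libraries labelled 2KO. These ranges overlapped, with a log2 fold change of 0.15 (95% interval -0.23 to 0.54, edgeR adjusted p = 0.626). Pcgf5 (chromosome 19, 36348309 to 36460970, plus strand) had 4.80, 5.28, 7.60 and 4.40 CPM in control 1, control 2, 2KO 1 and 2KO 2. The 2KO libraries were its highest and its lowest, and its log2 fold change of 0.25 (interval -0.86 to 1.36, edgeR adjusted p = 0.799) was -0.20 without the first of them.

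Pcgf6, the partner of the variant complex that contains the DNA-binding proteins E2F6, MGA and MAX, was the 1 member with a negative value. It lies on chromosome 19 (47033617 to 47050906, minus strand) and had 17.1 and 22.6 CPM in the controls and 17.1 and 18.0 CPM in the libraries labelled 2KO. The ranges overlapped. Its log2 fold change of -0.18 (interval -0.77 to 0.42, edgeR adjusted p = 0.724) was 0.043 without the second control library and 0.053 with the GC content and length offset.

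The intervals limit what these libraries could miss. The lowest lower bound among the 8 members was 0.552-fold, for Pcgf5, followed by 0.586-fold for Pcgf6. For Pcgf2, Pcgf3 and Pcgf6 the upper bounds were 1.75-fold, 1.46-fold and 1.33-fold. The upper bounds were wider for Pcgf1 (3.71-fold), Bmi1 (3.10-fold), Ring1 (2.91-fold), Pcgf5 (2.56-fold) and Rnf2 (2.06-fold).

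**Figure D2:**
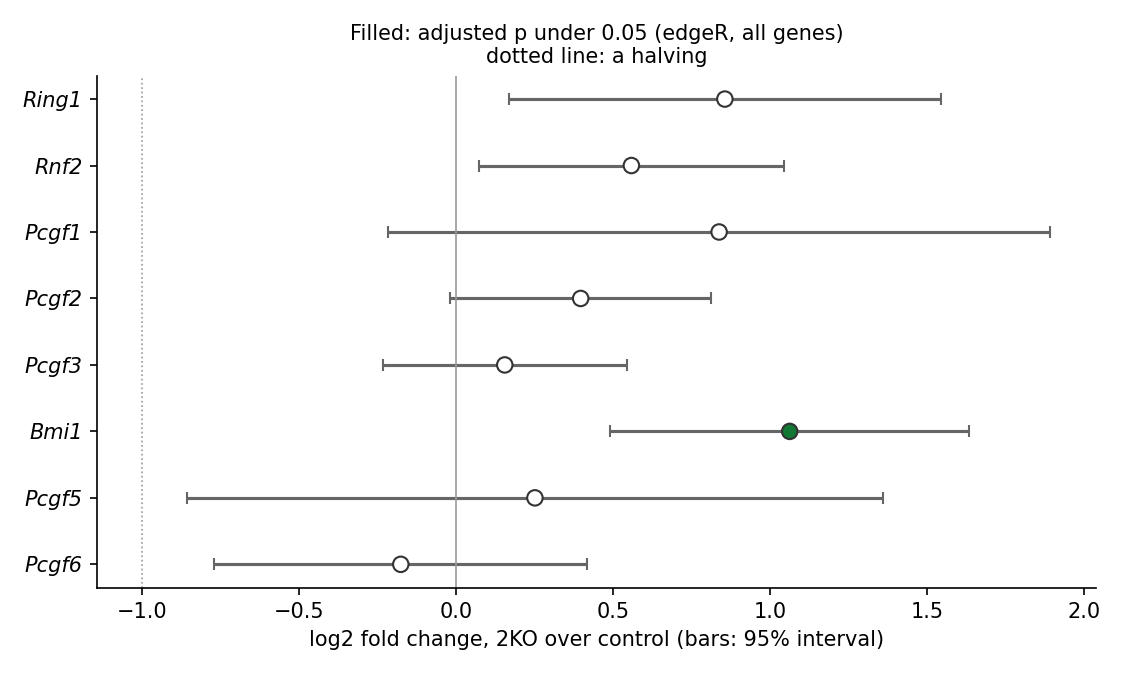
Log2 fold change of the libraries labelled 2KO over control for the 8 core genes, with points for the edgeR estimates and bars for 95% intervals. Bmi1 (1.06, filled) is the 1 gene past the adjusted threshold, and Pcgf6 (-0.18) has the 1 negative estimate. The intervals of Ring1 and Rnf2 also lie above 0, but these are not adjusted for the number of genes tested.

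Levels of different genes were compared on the deposited FPKM scale (fragments per kilobase, scaled to mapped reads), which adjusts for length. Averaged over the 4 libraries, the order was Pcgf2 (31.4), Pcgf3 (18.7), Rnf2 (15.1), Bmi1 (12.2), Pcgf6 (8.35), Pcgf1 (6.60), Ring1 (4.09) and Pcgf5 (3.44). Pcgf2 was first in all 4 libraries, from 26.6 to 34.9, and its range did not meet that of Pcgf3, from 16.7 to 21.3. Every other pair of neighbours in this order had overlapping ranges across the libraries. By CPM per kilobase of exons Pcgf2 was also first in all 4 libraries, but Pcgf3 was in place 3 or 4, behind Rnf2.

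Bmi1 stood higher in this order in the libraries labelled 2KO. Its FPKM was 5.54, 8.49, 14.9 and 19.98 in control 1, control 2, 2KO 1 and 2KO 2. Its place among the 8 was 6 and 5 in the controls and 4 and 3 in the libraries labelled 2KO, counted from the most abundant. By CPM per kilobase of exons its places were 4 and 3 in the controls and 3 and 2 in the libraries labelled 2KO, so control 2 and 2KO 1 were level. Rnf2 had 9.13, 13.3, 18.7 and 19.2 FPKM in the same order of libraries, which put it in places 2 to 4. The Rnf2 and Bmi1 groups did not overlap on this scale either.

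Ring1 was the less abundant of the 2 RING1 genes in every library. Its FPKM was 3.96 and 1.59 in the controls and 6.03 and 4.77 in the libraries labelled 2KO. The controls differed far more on this scale than by counts: the ratio of the second to the first was 0.403 by FPKM and 0.950 by CPM. Pcgf1 showed a similar mismatch, since its second 2KO library was 3.51 times the first by FPKM (3.47 and 12.1) and 1.74 times by CPM. The reason for these mismatches was not tested, and ratios below are given on both scales.

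Both 2KO libraries exceeded both controls in FPKM for 5 of the 8 members, against 31.3% of all genes tested on that scale. The 5 genes were not those of the CPM scale. Ring1, Rnf2 and Bmi1 were without overlap on both scales. Both scales describe the same libraries, and the share of all genes tested without overlap on both was not computed. Pcgf3 (16.7 and 18.0 against 18.7 and 21.3) was separate by FPKM, while Pcgf1 and Pcgf2 were separate by CPM. Pcgf5 was separate by FPKM by a margin too small to read, with 2.84 in both the second control and the second 2KO library.

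**Figure D3:**
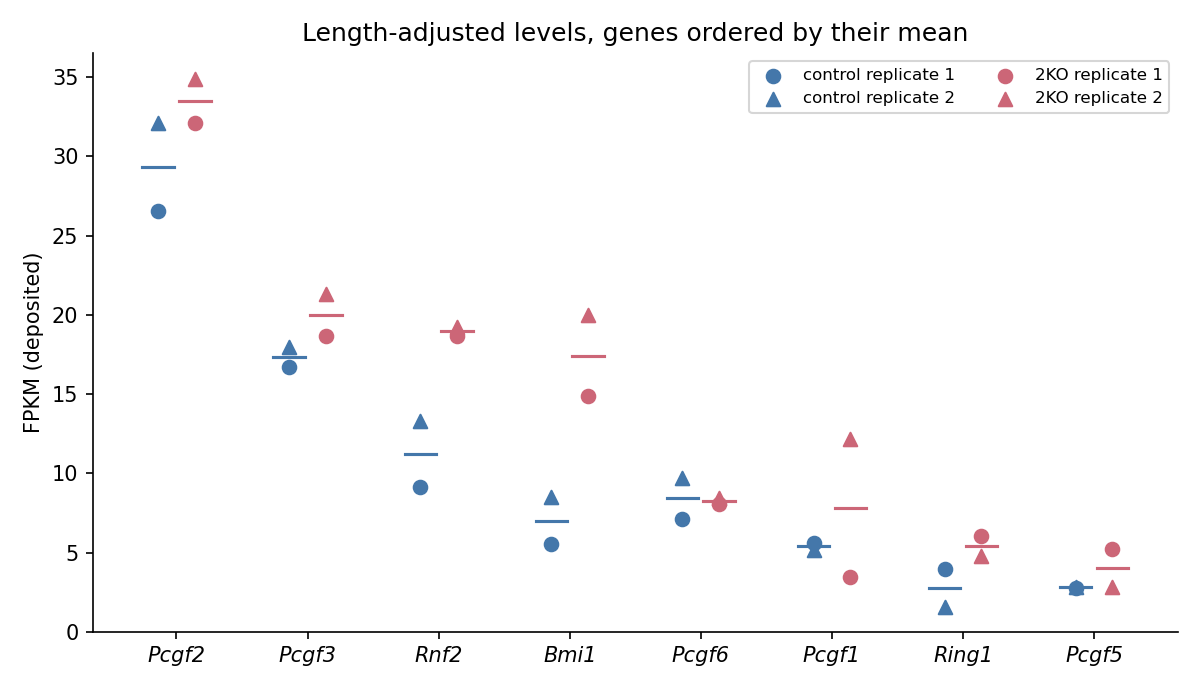
Deposited FPKM of the 8 core genes in each library, ordered by the mean over all 4, with circles for replicate 1, triangles for replicate 2 and horizontal bars for group means. Pcgf2 (26.6 to 34.9) stands above the rest in every library, and Bmi1 goes from 5.54 and 8.49 in the controls to 14.9 and 19.98 in the libraries labelled 2KO.

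Comparing the targeted pair with its partners within each library removes library scaling. Ring1 and Rnf2 together had 13.1 and 14.9 FPKM in the controls and 24.7 and 24.0 FPKM in the libraries labelled 2KO. The 6 Pcgf genes together had 64.4 and 76.3 FPKM in the controls and 82.4 and 99.6 FPKM in the libraries labelled 2KO. Both sums were higher in each library labelled 2KO than in either control.

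The ratio of the targeted sum to the Pcgf sum was 0.203 and 0.196 in the controls and 0.300 and 0.241 in the libraries labelled 2KO by FPKM. On this scale the groups did not overlap. By counts the ratio was 0.232 and 0.257 in the controls and 0.317 and 0.254 in the libraries labelled 2KO, and the groups overlapped. The separation therefore rested on the choice of scale.

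Within the targeted pair, the balance did not separate the groups. The Ring1 to Rnf2 ratio was 0.434, 0.119, 0.323 and 0.248 by FPKM in control 1, control 2, 2KO 1 and 2KO 2, so the controls were the highest and the lowest. By counts, Ring1 contributed 21.0% of the reads of the pair in control 1 (Wilson 95% interval 18.4% to 23.8%) and 14.3% in control 2 (12.3% to 16.6%). It contributed 21.1% (19.0% to 23.3%) and 19.4% (17.5% to 21.4%) in the libraries labelled 2KO. Control 2 stood below the other 3 libraries beyond counting error.

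Within the partners, Bmi1 had the larger share in the libraries labelled 2KO. It took 8.60% and 11.1% of the Pcgf FPKM in the controls and 18.1% and 20.0% in the libraries labelled 2KO. By counts its share was 13.1% and 17.6% in the controls and 23.5% and 25.2% in the libraries labelled 2KO, again without overlap. Pcgf2 took 41.3% and 42.1% of the Pcgf FPKM in the controls and 38.9% and 35.0% in the libraries labelled 2KO. By counts the Pcgf2 share overlapped, at 36.6% and 36.0% against 35.2% and 36.3%. The Bmi1 to Pcgf2 ratio by FPKM, which compares the 2 canonical partners, was 0.208 and 0.264 in the controls and 0.464 and 0.573 in the libraries labelled 2KO.

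That ratio did not overlap between groups on the count scale either, at 0.357 and 0.490 against 0.666 and 0.696. The Bmi1 to Rnf2 ratio by FPKM was 0.607 and 0.637 in the controls and 0.797 and 1.04 in the libraries labelled 2KO. By counts it was 0.713 and 0.800 against 0.937 and 1.23, so the groups did not overlap on either scale. With 2 libraries against 2, the smallest p that an exact two-sided permutation test can give is 0.333, so none was run on these ratios. The share and the ratios of Bmi1 repeat its change in the same libraries and are no separate result. How often ratios of other genes separate the groups was not computed.

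**Figure D4:**
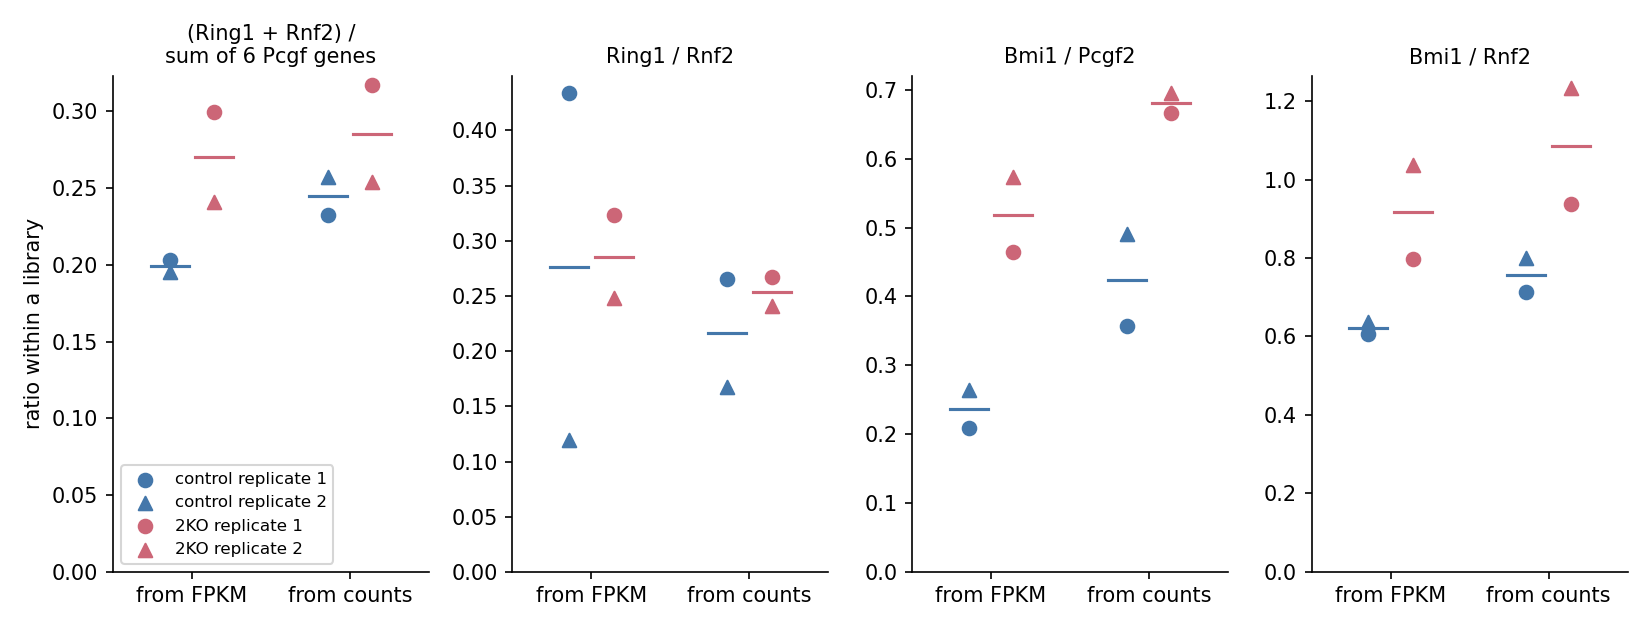
Ratios within each library, from FPKM and from counts, of the RING1 pair to the 6 Pcgf genes, Ring1 to Rnf2, Bmi1 to Pcgf2 and Bmi1 to Rnf2; circles are replicate 1, triangles replicate 2 and bars group means. The Bmi1 to Pcgf2 ratio, which repeats the change of Bmi1, separates the groups on both scales (0.208 and 0.264 against 0.464 and 0.573 by FPKM). The ratio of the pair to the Pcgf genes overlaps by counts.

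The calls under other settings were compared next. Ring1 was positive in 16 of 16 alternatives, from 0.69 to 1.06 on the log2 scale, and passed in 0 of them (adjusted p from 0.0883 to 0.411; unadjusted p = 0.0193 with edgeR as reported). Rnf2 was positive in 16 of 16, from 0.31 to 0.89, and passed in 2. Pcgf1, Pcgf2 and Pcgf3 were positive in every alternative run and passed in 0.

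**Figure D5:**
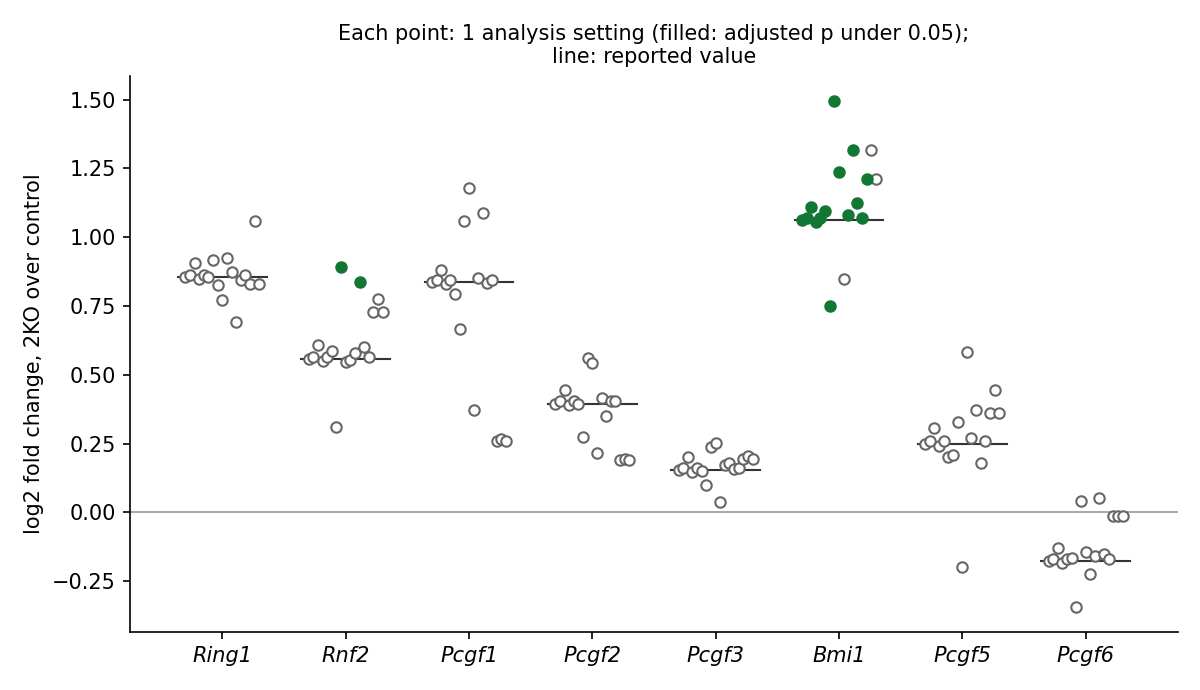
Log2 fold change of each core gene as reported (line) and under each analysis setting (points, filled where the adjusted p was under 0.05). Bmi1 stays between 0.75 and 1.49, Ring1 between 0.69 and 1.06 with no filled point, and the points of Pcgf5 and Pcgf6 lie on both sides of 0.

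The genes whose products join the core were read from the same fit, beside the 7.00% higher and 4.92% lower of all genes tested. Of 10 canonical PRC1 subunits, 3 rose, 0 fell and 7 did not pass, with a median log2 fold change of 0.24. Phc1, a polyhomeotic protein that links complexes to each other, had 44.3 and 49.4 CPM in the controls and 85.3 and 94.5 CPM in the libraries labelled 2KO (log2 fold change 0.94, edgeR adjusted p = 0.00733). Scmh1, another canonical subunit, had 64.3 and 75.6 CPM in the controls and 102.4 and 110.3 CPM in the libraries labelled 2KO (log2 fold change 0.60, edgeR adjusted p = 0.0440). Its call held in 10 of the 16 alternatives. It was lost from FPKM (limma adjusted p from 0.0903 to 0.143). It was also lost without the second 2KO library (log2 fold change 0.54), without the first 2KO library (0.65) and without the first control library (0.51).

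Of 23 variant PRC1 subunits, 4 rose, 1 fell and 18 did not pass, with a median of 0.12. The greatest change was in Bcorl1, the relative of Bcor, at 28.7 and 25.5 CPM in the controls and 79.7 and 75.9 CPM in the libraries labelled 2KO (log2 fold change 1.52, edgeR adjusted p = 0.000623). Bcor, the corepressor that joins the PCGF1 complex, had 92.2 and 86.0 CPM in the controls and 172 and 233 CPM in the libraries labelled 2KO (1.19, edgeR adjusted p = 0.00217). Fbrsl1, a relative of the AUTS2 subunit of the PCGF3 and PCGF5 complexes, rose by 0.92 (edgeR adjusted p = 0.00777). Rybp, the subunit that marks variant complexes, rose by 0.69 (edgeR adjusted p = 0.0325). The Rybp call held in 12 of the 16 alternatives. It was lost without the second 2KO library (log2 fold change 0.54) and from FPKM (limma adjusted p from 0.0639 to 0.128).

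The GC content and length offset ended the call of Fbrsl1 (edgeR adjusted p = 0.198), which held in 13 of the 16 alternatives. The 1 variant subunit that fell was Hdac2, a histone deacetylase, named after its value was seen. It had 196 and 262 CPM in the controls and 134 and 162 CPM in the libraries labelled 2KO (log2 fold change -0.63, edgeR adjusted p = 0.0477). This call was lost without the second control library (adjusted p = 0.170), without the first 2KO library (0.204) and with upper quartile scaling (0.0624), and it held in 8 of the 16 alternatives.

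Of 11 PRC2 subunits, 0 rose and 1 fell, with a median of -0.25. Rbbp7, a histone-binding subunit shared with other complexes, had 184 and 175 CPM in the controls and 112 and 115 CPM in the libraries labelled 2KO (log2 fold change -0.66, edgeR adjusted p = 0.0186). That call held in 10 of the 16 alternatives. It was lost without the first 2KO library (log2 fold change -0.65) and without the second (-0.69). It was also lost with the GC content and length offset (edgeR adjusted p = 0.137) and from FPKM (limma adjusted p from 0.0959 to 0.132).

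Among 8 genes of histone H2A deubiquitination, the reaction opposite to that of the core, 1 rose and 0 fell, with a median of 0.08. As for PRC2, this share lies near that of all genes tested. It was Asxl3, a partner of the deubiquitinase BAP1, at 4.07 and 7.10 CPM in the controls and 30.3 and 31.1 CPM in the libraries labelled 2KO (log2 fold change 2.46, edgeR adjusted p = 0.000856). Its call held in 14 of the 16 alternatives and was lost in the others, on FPKM (limma adjusted p = 0.0572 and 0.0967). The textbook Bmi1 targets Cdkn2a and Cdkn2b, which encode cell-cycle inhibitors, did not pass (edgeR adjusted p = 0.0850 and 0.313). Cdkn2a had 0.588 and 0 CPM in the controls and 4.25 and 2.92 CPM in the libraries labelled 2KO, and it passed in 5 of the 16 alternatives. By FPKM it had 0.477 and 0 in the controls and 8.50 and 5.01 in the libraries labelled 2KO.

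The 3 annotated genes on each side of the targeted genes were read to see the surroundings of the mutated loci. Of the 8 neighbours tested, 0 passed with edgeR as reported, 1 had an unadjusted p under 0.05, and that 1 passed with limma-voom and with DESeq2. It was H2-K1, 20.4 kb from Ring1, a class I histocompatibility gene with near-identical relatives, so its counts are uncertain. It had 32.5 and 10.7 CPM in the controls and 54.9 and 43.5 CPM in the libraries labelled 2KO (log2 fold change 1.18, edgeR adjusted p = 0.0790), and passed in 7 of the 16 alternatives. Its log2 fold change was 2.23 without the first control library (edgeR adjusted p = 4.62e-07) and 0.60 without the second (0.121). With a replicate block it was 1.37 and passed (edgeR adjusted p = 0.0103). H2-Ke6, 1.35 kb from Ring1 on the other side, changed by 0.32 (edgeR adjusted p = 0.726), and Vps52 by 0.21 (0.641). Around Rnf2, Swt1, Fam129a, Edem3 and 1700025G04Rik had log2 fold changes of -0.23, 0.47, 0.09 and -0.13, with edgeR adjusted p values of 0.602, 0.561, 0.793 and 0.628. Fam129a was 1.601 without the second control library (edgeR adjusted p = 0.00504) and -0.13 without the first. H2-K2, Mir219a-1, Mir219c and Mir7682 had too few reads to test.

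Likeness of pattern was measured as the Euclidean distance between centred log2 CPM values over the 4 libraries, among 10734 genes. The genes nearest to Ring1 were Simc1 (distance 0.0470), Tnfrsf18 (0.0542) and Tpp1 (0.0722). Among the core genes Rnf2 was the nearest to Ring1, in place 1321 at 0.532, followed by Pcgf2 in place 1828. The genes nearest to Rnf2 were Pddc1 (0.0805), Smarcd3 (0.0983) and Parm1 (0.103). The core gene nearest to Rnf2 was Pcgf2, in place 324 at 0.362, and Bmi1 stood in place 1570 at 0.586. With 4 libraries, many genes lie near any pattern.

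The libraries held 16256569 to 20624055 reads assigned to genes. The ribosomal precursor Rn45s took 16.7% and 15.3% of reads in the controls and 22.9% and 20.2% in the libraries labelled 2KO, and leaving it out with Malat1 and Lars2 changed no member's call. Epithelial markers were abundant, as labelled. Epcam had 189 to 245 CPM in all libraries (edgeR adjusted p = 0.542), and the 8 epithelial markers summed to 12357 to 14988 CPM in the controls and 10328 to 10972 CPM in the libraries labelled 2KO. Of these 8, Krt14, whose promoter drives Cre, and Krt5 fell, Krt14 by 0.72 on the log2 scale (edgeR adjusted p = 0.0248). The Krt14 call held in 12 of the 16 alternatives. It was lost without the first control library (log2 fold change -0.40) and from FPKM (limma adjusted p from 0.0848 to 0.263).

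The levels of markers of other cell types were read beside those of the core genes. Endothelial markers summed to 35.9 and 29.1 CPM in the controls and 53.9 and 75.0 CPM in the libraries labelled 2KO, with 0 of 10 called by edgeR. For 7 of these 10, both 2KO libraries exceeded both controls in CPM, against 29.0% of all genes tested. Their median log2 fold change over the 10 was 1.20. Immune markers summed to 27.8 and 24.6 against 58.0 and 50.9 CPM, with Cd68 the 1 of 7 tested that rose. Without Cd68 the other 9 summed to 6.52 and 12.7 CPM in the controls and 10.8 and 11.9 CPM in the libraries labelled 2KO, so that sum overlapped. Neural and Schwann cell markers summed to 35.3 and 29.2 against 95.6 and 110 CPM. Of these 9, 2 were called higher and 1 lower, with a median log2 fold change of 1.55. For 5 of the 9, both 2KO libraries exceeded both controls in CPM. Ncam1, a neural adhesion molecule, had 7.40, 11.3, 75.9 and 88.4 CPM in control 1, control 2, 2KO 1 and 2KO 2. It contributed most of the reads in the libraries labelled 2KO but not in the controls. Elavl3, also called higher, had 0.686 and 0.0587 CPM in the controls and 6.75 and 3.46 CPM in the libraries labelled 2KO (edgeR adjusted p = 0.0350). Tubb3, a neuronal tubulin, fell by 2.40 on the log2 scale (edgeR adjusted p = 0.0115). Without Ncam1 the other 8 summed to 27.9 and 17.9 CPM in the controls and 19.7 and 21.6 CPM in the libraries labelled 2KO.

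Mesenchymal markers summed to 320 and 394 CPM in the controls and 416 and 398 CPM in the libraries labelled 2KO, with 0 of 10 called. Muscle markers were highest in the second control library, at 106 CPM against 10.1 to 17.6 CPM in the others, with 0 of 7 tested called. The 6 erythroid markers in the files differed between the deposited scales. In the count files, Hbb-bs, Hba-a1 and Hba-a2 were at 0 in all 4 libraries. By FPKM, Hbb-bs had 28.5, 86.2, 16.7 and 40.1, and the list summed to 44.4, 126.3, 31.3 and 80.5, in control 1, control 2, 2KO 1 and 2KO 2. The FPKM ranges overlapped between groups, and the counts of these 3 genes say nothing on blood cells. The part of these markers in the values of the core genes was not tested.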

How the data were processed

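Per the submitters' processing notes, the authors' tools included HTSeq 0.6.1 and DESeq2 1.6.3 beside TopHat2 2.0.13 and Cufflinks 2.2.1, on mm10. The deposited FPKM values are labelled as coming from Cuffnorm. The sources used here give no other role for a tool, no annotation and no strand setting, so reads of overlapping genes and close relatives may be shared or lost. The deposited files give a whole-number read count per gene and library. A second deposited table gives FPKM values that the authors normalized for length and depth. RNA was amplified before sequencing, so reads are not independent molecules, and the intervals of shares cover counting error only.

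The quasi-likelihood test of edgeR 4.0.16 (R 4.3.3, two-sided) was run on the counts after TMM scaling and the filterByExpr filter. Of 24453 genes, 15336 were tested, and p-values were adjusted over all of them by Benjamini-Hochberg with a threshold of 0.05. Every adjusted p is from this test unless another tool is named. Alternatives used limma 3.58.1 and DESeq2 1.42.0. FPKM values were tested as log2(FPKM + 1), or + 0.1, after a filter of 1 FPKM, in limma. In simulated data, the steps recovered 32% of 2-fold changes and 73.7% of 4-fold changes, and 2.78% of the calls were false. A gene that did not pass may therefore still have changed. Replicate libraries differed by more than sampling noise (chi-square per degree of freedom 28.7 in control and 22.7 in 2KO).

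Positions are from GENCODE M21 on mm10; 23755 symbols matched directly, 289 through an older symbol, 53 matched several genes and 356 none. The members, lists and alternatives were chosen with earlier results of these data known. The text names the 8 members, the called genes of each pathway list by smallest p (at most 4, or 2 where none was called; 1 called canonical subunit is not reported here), the 3 neighbours on each side of Ring1 and Rnf2, and the 3 genes nearest to each in pattern among those with a mean of at least 5 CPM. It also names Epcam, Krt14, Rn45s and leading markers of other cell types. Hdac2, Krt5, Cd68, Ncam1, Elavl3 and Tubb3 were named for their values where the rule did not take them in.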

Additional observations from a re-analysis of the deposited data

How the results depend on the processing

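The number of genes called was 1827 as reported, 2796 with no filter on low counts, 887 and 658 from FPKM with pseudocounts of 1 and 0.1, and 0 from FPKM with no filter (limma; 3764 genes had an unadjusted p under 0.05). Leaving out 1 library gave 1405 to 2747 genes, the highest without the first control library. The share called as higher was 58.7% as reported and 70.7% from FPKM with a pseudocount of 1. Bmi1 kept its direction but did not pass from FPKM with a pseudocount of 0.1 (1.32, limma adjusted p = 0.0524) or with no filter (1.21, adjusted p = 0.128), and lay between 0.75 and 1.49 with 1 library left out. Rnf2 passed with the GC content and length offset (0.84) and ranged from 0.31 to 0.89 with 1 library left out. Pcgf5 ranged from -0.20 to 0.58 and Pcgf6 from -0.34 to 0.043 with 1 library left out, and Pcgf6 was 0.053 with the offset. The log2 difference in the ratio of the RING1 pair to the Pcgf genes was 0.43 by FPKM and 0.21 by counts, and that in the Ring1 to Rnf2 ratio was 0.31 by FPKM and -0.62 to 1.24 with 1 library left out. Among neighbours, with 1 library left out, H2-K1 ranged from 0.60 to 2.23, H2-Ke6 from -0.054 to 0.85, Fam129a from -0.13 to 1.601 and Edem3 from -0.047 to 0.27. In each case the cause was not tested. A fit that leaves 1 library in a group assumes that it varies like the other group. The replicate numbers are shared by label only, and deviations of same-numbered libraries had a correlation of -0.0232. A replicate block gave 2036 genes called and a Bmi1 log2 fold change of 1.09 (edgeR adjusted p = 0.00464), and it changed no member's call; among the other genes named, it changed that of H2-K1 (1.37, adjusted p = 0.0103). Reads on Ring1 (146 to 304), Pcgf1 (81 to 212) and Pcgf5 (89 to 134) limit the precision of those genes.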
